A study of Rattus norvegicus with 23 samples.

Results

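The genes described here are 36 genes of autonomic neurons, chosen by name for their part in noradrenaline synthesis, cholinergic transmission, neuropeptides, ganglionic receptors, axons and vesicles. Probes were assigned to them through the transcript accession of the array, and 35 of the 36 had a probe; Stmn3 had none. Th and Prph each have a single probe that lacks a value on 1 array, so that 33 had a value on every array, and all 33 passed the filter that left 16089 of 16544 named genes of the whole data set. The study compared regions of the heart and the great vessels with Agilent arrays of 1 color, where each spot's brightness reports how much labeled RNA its probe captured. The 23 arrays hold RNA of left atrium adjacent to the pulmonary vein (LA, 4 arrays), left ventricular mass (LV, 4), right ventricular free wall (RV, 3), the sinoatrial node (SA, 4), the pulmonary vein (PV, 4) and the pulmonary artery (PA, 4). The animals were 12 male Wistar rats of 8 to 11 weeks, put under deep pentobarbital anesthesia with heparin before the heart was taken out. Each SA sample joined tissue of 2 rats, and the methods have every left ventricular mass cut into 3 parts that served as samples, so that LV arrays may share an animal. Blood was rinsed out of the hearts with a cold heparinized solution. Per the methods, the vagus nerve and fat had been dissected off before any region was taken. The labels do not say which rat gave which sample, so that p-values measure the spread between these samples.

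The heart is innervated by sympathetic neurons, whose cell bodies lie mostly outside the heart, and by parasympathetic neurons of small ganglia that sit in fat on the atria, around the roots of the pulmonary veins and near the sinoatrial node. Sympathetic neurons make noradrenaline from tyrosine through tyrosine hydroxylase, aromatic amino acid decarboxylase and dopamine beta-hydroxylase, and many store neuropeptide Y with it. Most messenger RNA of a neuron stays in its cell body, while its axon holds little. In bulk tissue, fewer neurons and less RNA per neuron cannot be told apart.

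The values are the normalized signals on the scale log2(signal + 1), with the brightest probe of a gene taken on each array. On each array the lowest signal marked as well above background lay between 3.84 and 5.66 on this scale, so that values near or under these have little meaning. The arrays lay in 2 rows of the slides, and the share of probes well above background was 72.6% to 79.8% on the 11 arrays of row 1 and 58.5% to 69.3% on the 12 arrays of row 2. Row 1 held 3 LA, 2 LV, 2 RV, 2 PA, 1 SA and 1 PV arrays. Cardiomyocyte markers (8 genes) had a summed signal of 1820000 to 2170000 in LA, 2260000 to 2390000 in PV, 2460000 to 2850000 in SA, 2560000 to 2920000 in LV, 2320000 to 2980000 in RV and 140000 to 221000 in PA. Sln, an atrial regulator of the calcium pump, stood at 10.66 on RV replicate 2 against 8.17 and 8.91 on the other RV arrays. Myl7, the atrial light chain, stood at 14.88 on PA replicate 1 against 10.39 to 11.70 on the other PA arrays. Both arrays were kept. Without RV replicate 2 the difference of Ddc between LV and RV and that of Nefh between PA and V lost their calls, and without PA replicate 1 the lower levels of Nefl and Nefh in PA than in PV and of Nefh in PA than in V did.

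Among the 6 regions, 23 of the 33 genes differed (limma F-test, adjusted p below 0.05), where 64.4% of all genes tested did. PV had the highest mean for 23 of the 33 genes tested, of which 19 passed this test. Chat, whose probes disagree, is among those that did not. The share of all genes with their highest mean in PV was not counted. Between PV and LA 19 genes were higher in PV and none lower, where 6.99% of all genes were called higher and 6.51% lower. The median log2 difference of the 33 genes was 1.24 between PV and LA, and that of all genes was -0.03. Between PV and SA 15 genes were higher in PV (2.71% of all genes) and 1 was lower (0.783%). Between PV and the ventricles (V, the average of the LV and RV means) 16 were higher in PV (15.6% of all genes) and 1 was lower (18.3%). The medians were 1.1 for PV against SA and 1.0 for PV against V, with -0.04 and -0.09 for all genes. The 3 comparisons share the PV arrays.

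**Figure D1:**
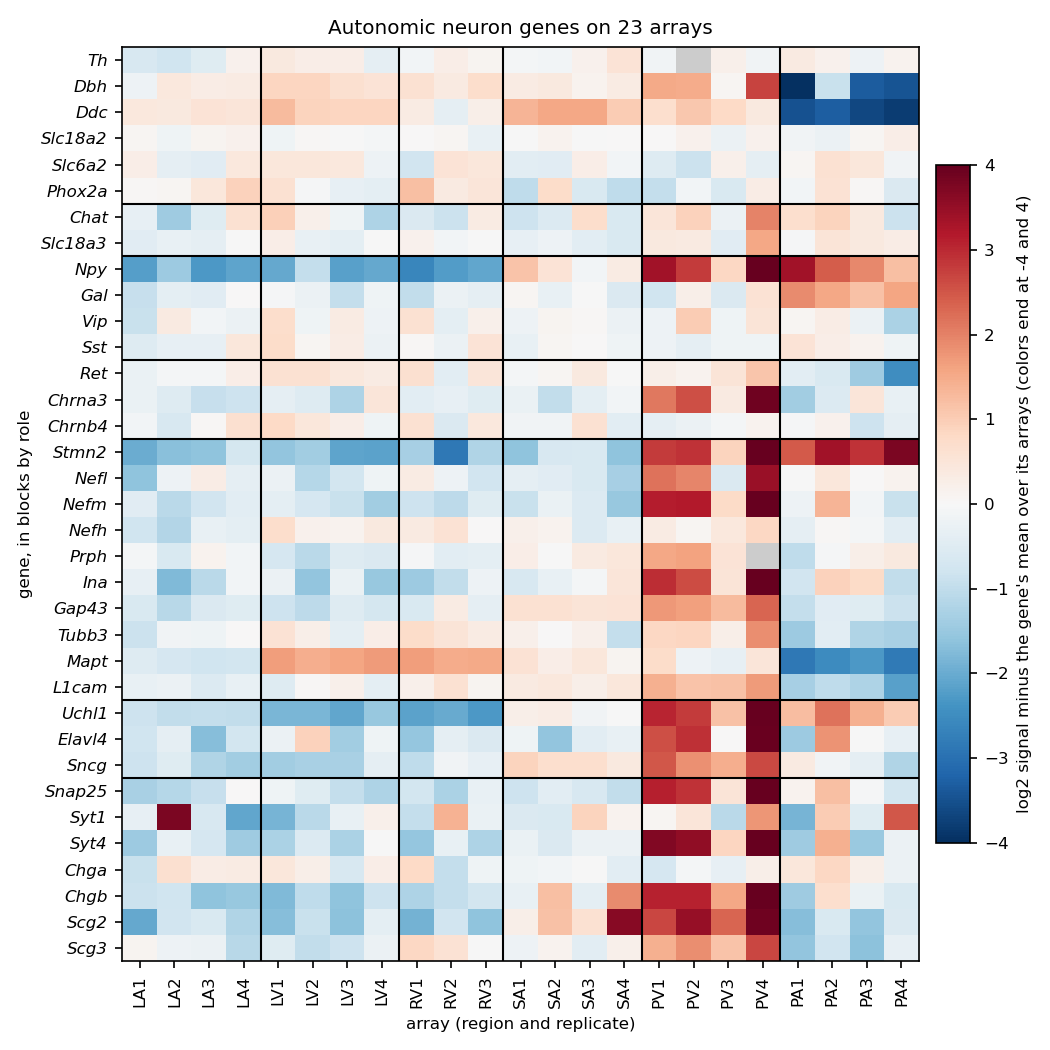
Log2 signal of 35 autonomic neuron genes (rows, in blocks by role) on 23 arrays (columns), each minus the gene's mean over its arrays; gray cells are the missing values of Th and Prph. The PV columns are the reddest block for most axon and vesicle genes, PV3 is paler than the other PV columns, and Ddc, Dbh and Mapt are blue in PA.

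In SA 8 of the 33 genes were higher than in LA and none lower, where 7.03% of all genes were higher and 8.26% lower. Against V, 7 were higher in SA and 1 was lower, where 12.3% and 15.8% of all genes were. Between LA and V 1 gene was higher in LA and 2 were lower, where 16.9% and 18.4% of all genes were. PA had 1 gene higher than PV and 20 lower, against 29.7% and 23.7% of all genes. Against V, 4 genes were higher in PA and 8 lower, beside 30.0% and 28.4% of all genes. LV and RV differed for 1 gene, beside 0.522% of all genes. The medians of the 33 genes were 0.19 for SA against LA, 0.01 for SA against V, -0.19 for LA against V, -1.73 for PA against PV, 0.16 for PA against V and 0.04 for LV against RV. The medians of all genes, in the same order, were 0.007, -0.06, -0.09, 0.13, 0.003 and 0.005.

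**Figure D2:**
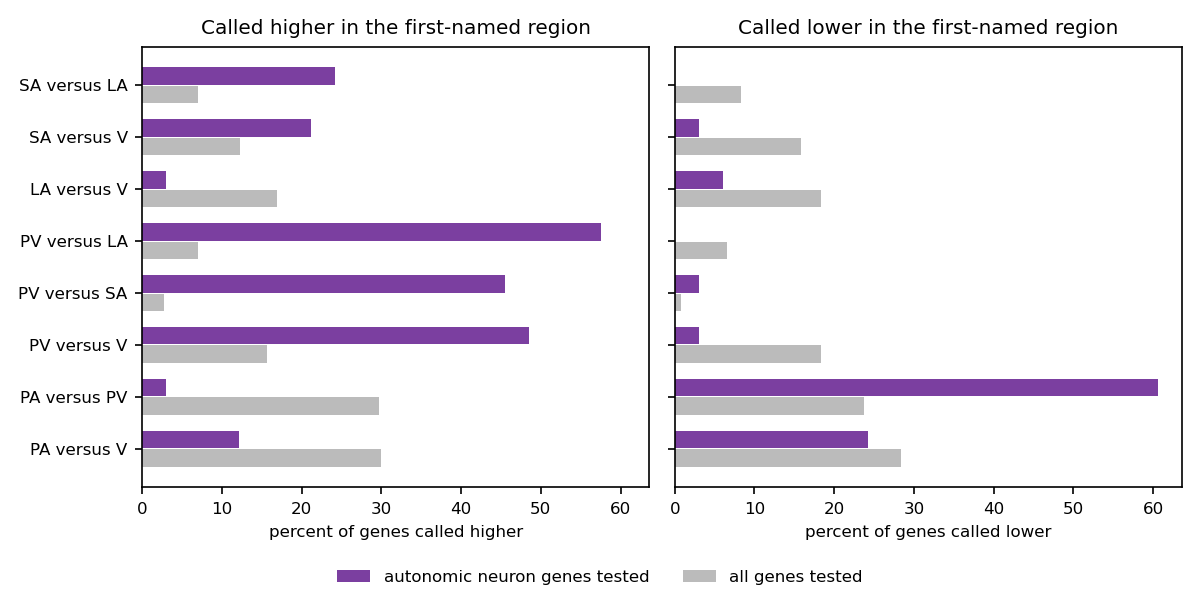
Percent of the 33 autonomic neuron genes (purple) and of all 16089 genes tested (gray) that were called higher (left) or lower (right) in the first-named region of 8 comparisons. The share of the neuron genes reached its highest values for PV higher than LA (19 genes) and PA lower than PV (20 genes).

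The enzymes and carriers of noradrenaline did not share 1 pattern, and of the 5 genes tested, 2 differed among the regions. Dbh, dopamine beta-hydroxylase, which turns dopamine into noradrenaline inside the vesicle, stood at 8.52, 9.13, 9.02 and 9.04 in LA, at 9.57, 9.58, 9.35 and 9.28 in LV and at 9.32, 9.08 and 9.42 in RV. It stood at 9.04, 9.11, 8.86 and 9.06 in SA, at 10.24, 10.19, 8.81 and 11.43 in PV and at 4.01, 7.82, 5.39 and 5.26 in PA. Every PA array was lower than every other array, and PV replicate 3 lay inside the range of LA while the other PV arrays lay above it. Dbh was lower in PA than in PV by a log2 difference of -4.55 (SE 0.56, adjusted p = 7.56e-07), and higher in PV than in LA by 1.24 (SE 0.56, adjusted p = 0.167), which did not pass.

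Ddc, aromatic amino acid decarboxylase, which makes dopamine from L-DOPA, was lowest in PA and highest in SA. Its values were 12.29, 12.27, 12.42 and 12.35 in LA, 13.16, 12.76, 12.74 and 12.73 in LV and 12.20, 11.52 and 12.11 in RV. They were 13.23, 13.42, 13.41 and 12.88 in SA, 12.54, 12.97, 12.67 and 12.27 in PV and 8.40, 8.58, 8.25 and 8.08 in PA. All PA arrays lay far below the others, and all SA arrays lay above all LA arrays. The log2 difference was -4.28 between PA and PV (SE 0.17, adjusted p = 4.52e-14), 0.91 between SA and LA (SE 0.17, adjusted p = 0.00113), 0.84 between SA and V (SE 0.15, adjusted p = 0.000235) and -0.63 between PV and SA (SE 0.17, adjusted p = 0.0454). Ddc has 4 probes, and the 3 that were well above background on at least 22 arrays ran from -3.73 to -5.30 between PA and PV when fitted alone. Between PV and LA these gave 0.28, 1.18 and 0.72 (adjusted p over all probes = 0.413, 0.00162 and 0.296), so that only the second of them passed. Between LA and V they gave -0.06, -0.84 and -0.23 (adjusted p = 0.808, 0.0025 and 0.678). The call between PV and SA was the least stable of all, lost in 21 of the alternatives tried. No Ddc probe passed there when fitted alone (lowest adjusted p = 0.0704). The low level in PA went with that of the cardiomyocyte markers, of which 8 of 8 were lower in PA than in PV; the part of muscle in it was not tested.

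The other noradrenergic genes did not pass among the regions. Th, tyrosine hydroxylase, the rate-limiting enzyme of the pathway, had region means between 9.80 (LA, SD 0.42) and 10.39 (LV, SD 0.34), with 10.22 in PV (SD 0.19, n = 3, replicate 2 missing). In a fit of the arrays that have a value, its adjusted p among the regions was 0.122, and 1 of the 9 comparisons passed, LA lower than V by a log2 difference of -0.55 (SE 0.19, adjusted p = 0.0261). Slc18a2, the vesicular monoamine transporter, lay between 7.25 and 7.81 on all 23 arrays (adjusted p = 0.897). Slc6a2, the noradrenaline transporter of the plasma membrane, had region means of 6.31 in PV to 6.97 in LV (adjusted p = 0.315). Phox2a, a transcription factor of autonomic neurons, was well above background on 9 of 23 arrays, with region means of 4.09 to 5.25 (adjusted p = 0.115). With the brightest probe of each, 0 of the 5 genes tested were called higher in PV than in LA by limma, with a median log2 difference of -0.01. At an unadjusted p below 0.05 Dbh was.

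Of the 36 genes, 26 have an entry among the RefSeq promoter sequences (GRCr8), which run from 250 bases before the annotated start to 50 after it. Those of Th, Dbh and Npy are shown because sympathetic neurons use all 3 genes and their patterns here differed: Th did not pass among the regions, Dbh was lowest in PA, and Npy was high in SA, PV and PA. The 250 bases before the start are printed 5′ to 3′ on the strand of the gene, from chr1:207508219-207508468 (minus strand) for Th, chr3:30886078-30886327 (plus strand) for Dbh and chr4:80211861-80212110 (plus strand) for Npy. Capitals mark the cAMP response element TGACGTCA in Th, both copies of its shorter core TGACG in Dbh (on the opposite strand, read as CGTCA) and the GC box GGGCGG in Npy.
Th: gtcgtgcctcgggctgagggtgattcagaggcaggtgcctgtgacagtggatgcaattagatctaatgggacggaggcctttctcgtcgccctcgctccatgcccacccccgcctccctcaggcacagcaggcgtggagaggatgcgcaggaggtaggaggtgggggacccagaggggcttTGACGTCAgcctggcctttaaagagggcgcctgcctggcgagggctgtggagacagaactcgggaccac
Dbh: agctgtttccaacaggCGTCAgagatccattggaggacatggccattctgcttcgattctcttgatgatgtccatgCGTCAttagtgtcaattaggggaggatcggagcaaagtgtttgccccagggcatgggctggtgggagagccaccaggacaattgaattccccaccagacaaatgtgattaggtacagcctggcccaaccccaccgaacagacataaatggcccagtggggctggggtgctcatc
Npy: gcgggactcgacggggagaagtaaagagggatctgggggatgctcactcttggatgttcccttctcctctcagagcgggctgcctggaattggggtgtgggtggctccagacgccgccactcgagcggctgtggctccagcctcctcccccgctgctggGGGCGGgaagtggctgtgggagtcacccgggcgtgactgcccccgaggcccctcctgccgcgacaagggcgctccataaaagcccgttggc

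In Th the element lies 69 to 62 bases before the start that this set of sequences uses. The gene span in the RefSeq gene table begins farther upstream for Th and Dbh and takes in 58 and 15 of their printed bases. Searched on both strands of the whole window, TGACGTCA stood in 4 of the 26 (Scg2, Slc18a2, Sst and Th) and in 1.83% of 33469 promoters. The shorter core TGACG, which every full element also holds, stood in 11 of 26 and in 21.2% of all. The GC box GGGCGG stood in 14 of 26 and in 33.1%, the core TAATTA of Phox2 sites in 1 of 26 (Sst) and in 5.36%, and the E-box CANNTG in 18 of 26 and in 72.1%. Of the genes with TGACGTCA, Th, Slc18a2 and Sst did not pass among the regions and Scg2 did. A match is a description of the letters.

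Of the cholinergic genes, Slc18a3 did not pass among the regions and Chat depended on the probe. Slc18a3, the vesicular acetylcholine transporter, whose gene lies within the Chat locus on chromosome 16, stood at 7.58, 7.75, 7.68 and 8.03 in LA, at 8.31, 7.74, 7.66 and 8.01 in LV and at 8.22, 7.94 and 8.02 in RV. It stood at 7.71, 7.85, 7.62 and 7.44 in SA, at 8.44, 8.41, 7.59 and 9.58 in PV and at 7.99, 8.57, 8.43 and 8.35 in PA. PV replicate 4 was the highest array and PV replicate 3 was inside the range of LA (adjusted p among the regions = 0.0616). Chat, choline acetyltransferase, which makes acetylcholine, has 2 probes that disagreed. The first was the brighter on 3 of 4 PV arrays and the second on all 4 LA arrays, so that the gene's value sets one probe against the other, and the probes are given apart.

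On the first Chat probe, PV stood at 6.54, 6.96, 5.62 and 8.03, and all other arrays lay between 2.04 and 5.20. It was well above background on all 4 PV arrays, on 1 array each of LA, LV, RV and PA and on none of SA, so that most values it is compared with lie at background. Fitted on its own, a setting added once the values were known, that probe passed between PV and LA (adjusted p over all probes = 0.00257) and between PA and PV (adjusted p = 0.00814), and was at least 3.12-fold higher in PV than in SA (adjusted p = 0.0263). On the second probe PV stood at 4.83, 5.04, 5.82 and 5.42 and LA at 5.72, 4.64, 5.58 and 6.68, a log2 difference of -0.37 (SE 0.50, adjusted p = 0.779). Which probe reads the neuronal transcript was not tested.

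Of the 4 neuropeptide genes, Npy and Gal differed among the regions. Npy, neuropeptide Y, the main peptide of cardiac sympathetic nerves, stood at 7.13, 7.87, 7.03 and 7.22 in LA, at 7.28, 8.36, 7.16 and 7.28 in LV and at 6.71, 7.09 and 7.24 in RV. It stood at 10.47, 9.88, 9.20 and 9.64 in SA, at 12.69, 12.11, 10.15 and 13.74 in PV and at 12.67, 11.75, 11.24 and 10.52 in PA. All arrays of SA, PV and PA lay above all arrays of LA, LV and RV. Npy was higher in PV than in LA by 4.86 (SE 0.56, adjusted p = 1.2e-05), which is 29 times on the linear scale, and in SA than in LA by 2.48 (SE 0.56, adjusted p = 0.00477). In PA it was higher than in V by 4.28 (SE 0.50, adjusted p = 2.69e-07), and PA and PV differed by -0.63 (SE 0.56, adjusted p = 0.374), which did not pass. The higher level in PV than in SA (2.37, SE 0.56, adjusted p = 0.025) came with overlap, since PV replicate 3 lay below SA replicate 1.

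Gal, galanin, a peptide of autonomic and sensory nerves, was highest in PA. It stood at 6.19, 6.71, 6.66 and 7.11 in LA, at 7.05, 6.87, 6.15 and 6.92 in LV, at 6.11, 6.86 and 6.73 in RV and at 7.20, 6.79, 7.08 and 6.54 in SA. It stood at 6.31, 7.33, 6.53 and 7.68 in PV and at 8.99, 8.66, 8.27 and 8.69 in PA. Every PA array lay above every other array, with a log2 difference of 1.69 from PV (SE 0.29, adjusted p = 4.88e-05) and of 1.99 from V (SE 0.26, adjusted p = 1.05e-06). Vip, vasoactive intestinal peptide of parasympathetic nerves, had region means of 5.58 to 6.15 (adjusted p = 0.581). Sst, somatostatin, had means of 3.80 to 4.23 and was well above background on 2 arrays (adjusted p = 0.285).

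**Figure D3:**
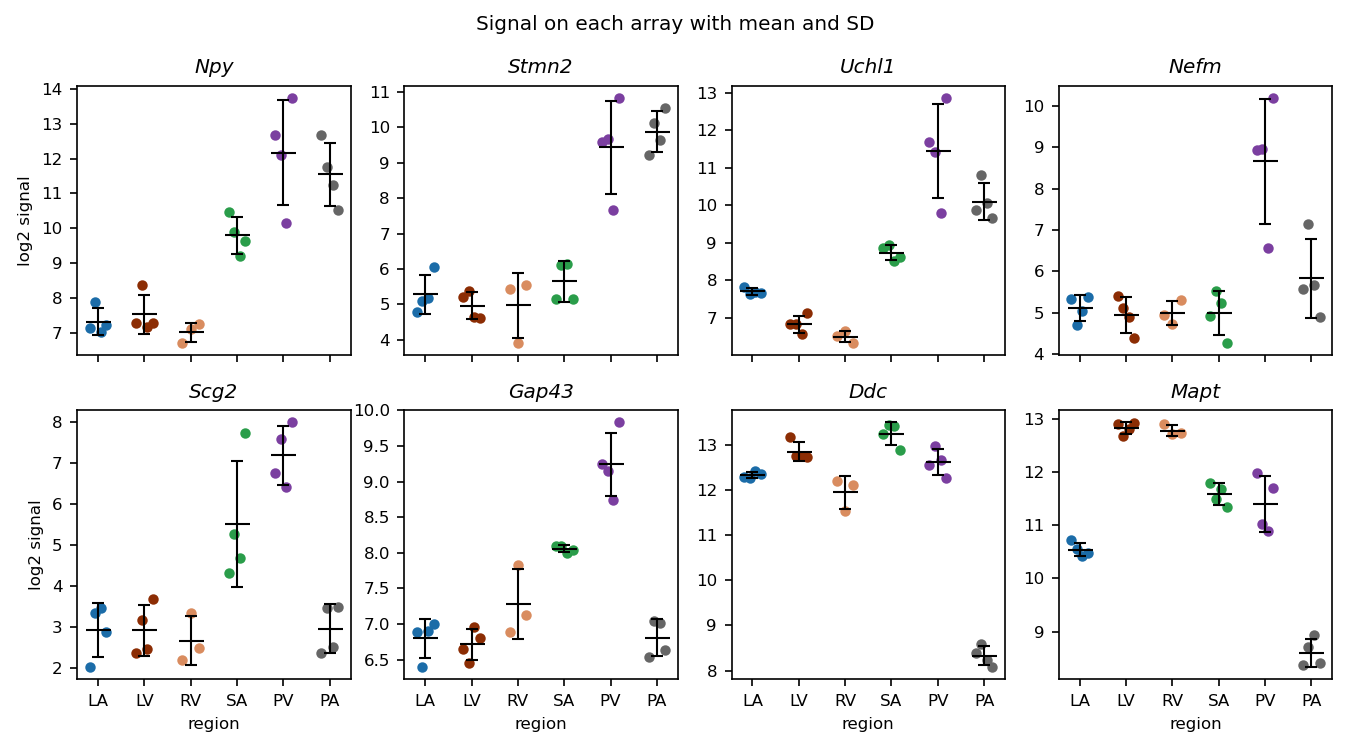
Log2 signal of 8 genes on each array (points) by region, with the mean and SD of the region (black bars). Npy, Stmn2 and Uchl1 are high in both PV and PA, Nefm, Scg2 and Gap43 in PV without PA, Ddc is lowest in PA, and Mapt is highest in LV and RV.

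Of the 3 receptor genes, Chrna3 and Ret differed. Chrna3, the subunit of the ganglionic nicotinic acetylcholine receptor, was well above background on 3 of 4 PV arrays and on no other array. Its mean was 5.98 in PV (SD 1.46) and between 3.11 and 3.34 in the other regions. It was at least 3.12-fold higher in PV than in LA (adjusted p = 0.00105) and at least 1.81-fold higher than in SA (adjusted p = 0.00848), where the lower group is set at the lowest signal that the arrays mark as well above background. Chrnb4, its partner subunit, whose gene neighbors Chrna3 on chromosome 8, did not follow it. Its values were 9.35, 8.84, 9.51 and 10.12 in LA, 10.27, 9.93, 9.74 and 9.29 in LV, 10.09, 8.90 and 9.90 in RV and 9.32, 9.32, 10.09 and 9.05 in SA. They were 9.11, 9.24, 9.40 and 9.60 in PV and 9.42, 9.64, 8.65 and 9.11 in PA, so that all regions overlapped (adjusted p = 0.538).

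Ret, the receptor tyrosine kinase for ligands of the GDNF family, stood at 6.62, 6.80, 6.80 and 7.16 in LA, at 7.51, 7.49, 7.31 and 7.22 in LV, at 7.53, 6.47 and 7.38 in RV and at 6.83, 6.98, 7.28 and 6.89 in SA. In PV it stood at 7.14, 7.03, 7.40 and 7.99 and in PA at 6.48, 6.28, 5.48 and 4.39. PA was lower than PV on every array, by -1.73 (SE 0.34, adjusted p = 0.000227), and PA replicate 4 was the lowest.

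Axon and cytoskeleton genes were the role with the most genes tested. Of these, 9 of 9 differed among the regions (64.4% of all genes), and 9 of 9 were higher in PV than in LA (6.99% of all genes). Their median log2 difference between PV and LA was 2.22. Stmn2, a stathmin that regulates microtubules in growing axons, stood at 4.78, 5.10, 5.17 and 6.06 in LA, at 5.21, 5.36, 4.66 and 4.61 in LV and at 5.43, 3.92 and 5.56 in RV. It stood at 5.15, 6.13, 6.15 and 5.15 in SA, at 9.58, 9.67, 7.66 and 10.82 in PV and at 9.22, 10.13, 9.65 and 10.54 in PA. Every PV and PA array lay above all other arrays. The difference was 4.15 between PV and LA (SE 0.52, adjusted p = 3.17e-05), 3.79 between PV and SA (SE 0.52, adjusted p = 0.00106) and 4.92 between PA and V (SE 0.47, adjusted p = 1.4e-08), and PA and PV differed by 0.45 (SE 0.52, adjusted p = 0.503).

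Nefm, Nefl and Ina were higher in PV than in LA, SA and V and lower in PA than in PV, while Nefh did not pass between PV and V or SA. Nefm, the medium subunit of the intermediate filaments of large axons, stood at 5.34, 4.70, 5.03 and 5.38 in LA, at 5.41, 5.12, 4.89 and 4.39 in LV, at 4.95, 4.73 and 5.31 in RV and at 4.91, 5.51, 5.25 and 4.28 in SA. In PV it stood at 8.93, 8.95, 6.56 and 10.18 and in PA at 5.58, 7.15, 5.68 and 4.91. All PV arrays lay above LA, LV, RV and SA, and PA replicate 2 overlapped PV replicate 3. The difference was 3.54 between PV and LA (SE 0.56, adjusted p = 0.00025) and -2.83 between PA and PV (SE 0.56, adjusted p = 0.000225).

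Ina, alpha-internexin, another neuronal filament protein, stood at 5.04, 3.58, 4.29 and 5.25 in LA, at 5.13, 3.78, 5.08 and 3.84 in LV, at 3.90, 4.37 and 5.16 in RV and at 4.73, 5.07, 5.28 and 5.83 in SA. It stood at 8.31, 7.97, 5.89 and 9.40 in PV and at 4.58, 6.28, 6.12 and 4.39 in PA, with 3.35 between PV and LA (SE 0.62, adjusted p = 0.00108). Nefh, the heavy subunit, moved over a narrower range: 5.48, 5.13, 5.98 and 5.89 in LA, 6.98, 6.47, 6.44 and 6.69 in LV, 6.63, 6.86 and 6.29 in RV, 6.49, 6.42, 5.74 and 5.99 in SA, 6.61, 6.38, 6.70 and 7.13 in PV and 5.94, 6.34, 6.20 and 5.86 in PA. It was lower in LA than in V by -1.0 (SE 0.19, adjusted p = 0.000323) and higher in PV than in LA by 1.09 (SE 0.21, adjusted p = 0.00183), with 0.08 between PV and V (SE 0.19, adjusted p = 0.772) and 0.54 between PV and SA (SE 0.21, adjusted p = 0.193). Nefl, the light subunit, whose gene lies beside Nefm on chromosome 15, had a mean of 8.12 in PV (SD 1.69) and of 5.68 to 6.51 elsewhere, with 2.22 between PV and LA (SE 0.58, adjusted p = 0.0146), and PV replicate 3 at 5.79 lay inside the other regions. The call of Nefl between PV and LA was lost without PV replicate 4 or LA replicate 1 and in a fit of the PV and LA arrays alone (adjusted p = 0.158), and that of Nefh without PV replicates 3 and 4 together.

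Prph, peripherin, the filament protein of peripheral neurons, could be fitted only without PV replicate 4, whose value is missing. The other PV arrays stood at 11.08, 11.12 and 10.08 and all other arrays between 8.44 and 9.96, with a log2 difference of 1.40 between PV and LA (SE 0.30, adjusted p = 0.00362, PV n = 3) in that fit, which was chosen after the data were seen.

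Gap43, a protein of growth cones, was stepped from LA through SA to PV. It stood at 6.89, 6.40, 6.90 and 7.0 in LA, at 6.65, 6.45, 6.96 and 6.80 in LV, at 6.89, 7.83 and 7.12 in RV and at 8.09, 8.10, 8.0 and 8.04 in SA. It stood at 9.24, 9.14, 8.74 and 9.83 in PV and at 6.53, 7.04, 7.01 and 6.63 in PA. SA lay above all LA, LV, RV and PA arrays, and PV above all SA arrays. SA was higher than LA by 1.26 (SE 0.22, adjusted p = 0.000522) and PV higher than SA by 1.18 (SE 0.22, adjusted p = 0.00514).

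L1cam, an adhesion molecule of axons and Schwann cells, stood at 8.77, 8.81, 8.50 and 8.76 in LA, at 8.53, 9.12, 9.26 and 8.68 in LV, at 9.26, 9.67 and 9.16 in RV and at 9.41, 9.48, 9.29 and 9.51 in SA. It stood at 10.48, 10.21, 10.22 and 10.76 in PV and at 7.73, 8.04, 7.83 and 6.89 in PA. PV lay above and PA below every other array. The difference was 1.71 between PV and LA (SE 0.21, adjusted p = 2.16e-05) and 0.71 between SA and LA (SE 0.21, adjusted p = 0.0259), and the call between SA and LA was lost without LA replicate 3 or SA replicate 2 or 4.

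Tubb3, neuronal beta-tubulin, stood at 8.0, 8.72, 8.70 and 8.88 in LA, at 9.44, 9.09, 8.45 and 9.14 in LV, at 9.58, 9.39 and 9.17 in RV and at 9.06, 8.86, 9.07 and 7.91 in SA. It stood at 9.69, 9.71, 9.10 and 10.73 in PV and at 7.42, 8.43, 7.65 and 7.56 in PA. PV lay above all LA arrays, by 1.23 (SE 0.33, adjusted p = 0.0161), and overlapped LV and RV. This call was lost without PV replicate 4, with or without PV replicate 3, without LA replicate 1, with slide and array row both as blocks, and in a fit of the PV and LA arrays alone (adjusted p = 0.0777).

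Mapt, the microtubule-associated protein tau, was highest in the ventricles, unlike the other axon genes. It stood at 10.72, 10.55, 10.42 and 10.49 in LA, at 12.90, 12.68, 12.81 and 12.92 in LV, at 12.91, 12.71 and 12.73 in RV and at 11.80, 11.50, 11.69 and 11.34 in SA. It stood at 11.97, 11.03, 10.89 and 11.71 in PV and at 8.37, 8.70, 8.93 and 8.40 in PA. LV and RV lay above and PA below all other arrays. The difference was -2.26 between LA and V (SE 0.17, adjusted p = 3.49e-09), -4.20 between PA and V (SE 0.17, adjusted p = 2.36e-14) and 0.86 between PV and LA (SE 0.19, adjusted p = 0.0045). The last call was lost in a fit of the PV and LA arrays alone (adjusted p = 0.0796).

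**Figure D4:**
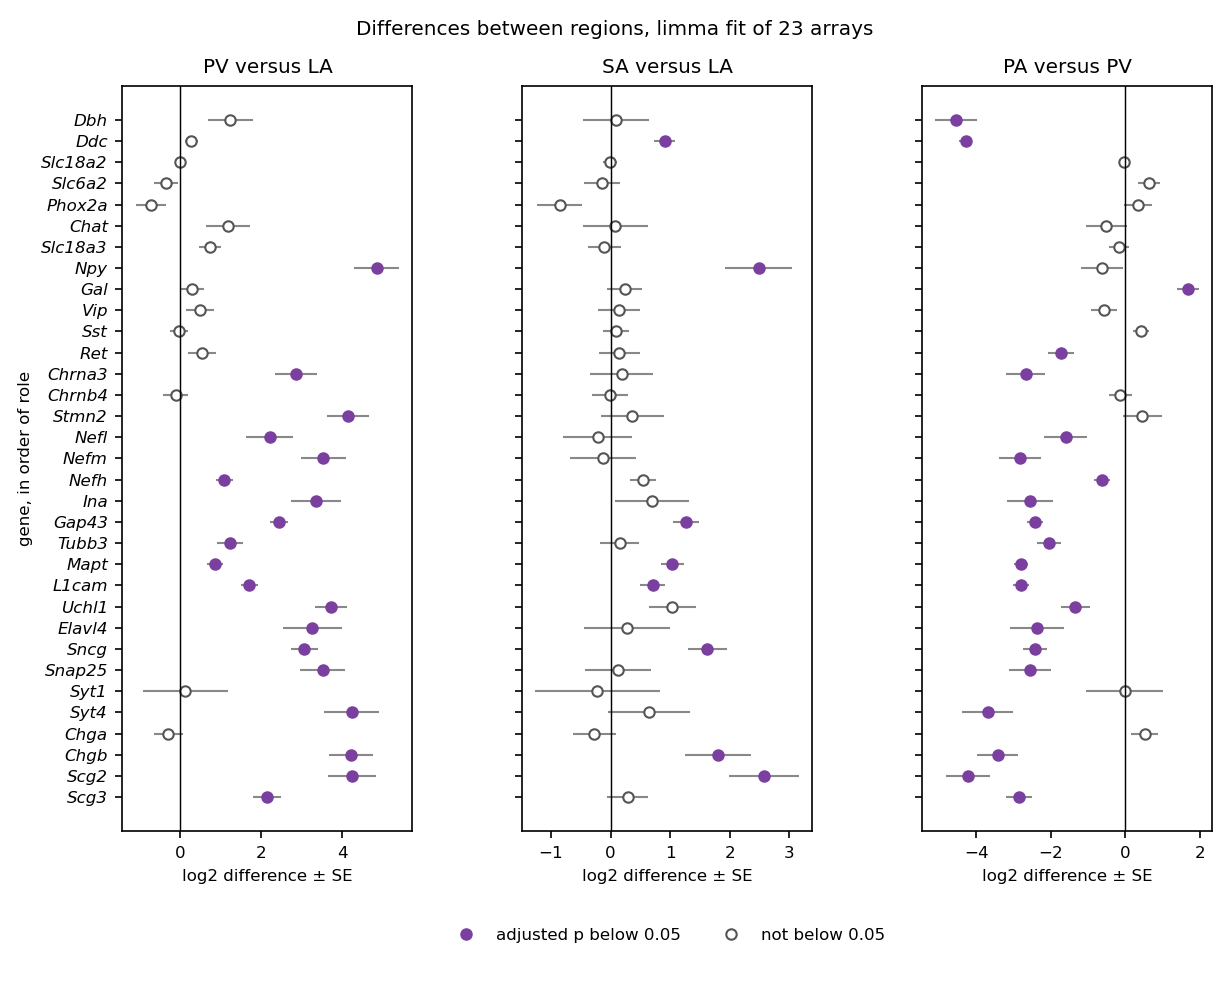
Log2 differences (points) with their standard errors (lines) of 33 genes for PV against LA, SA against LA and PA against PV, in the limma fit of 23 arrays; filled points have an adjusted p below 0.05. The filled points lie to the right for PV against LA (19 genes) and SA against LA (8) and, apart from Gal, to the left for PA against PV (20).

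The 3 genes of the neuronal cytoplasm were all higher in PV than in LA, SA and V. Uchl1, a ubiquitin hydrolase abundant in neurons, stood at 7.83, 7.65, 7.69 and 7.65 in LA, at 6.82, 6.82, 6.57 and 7.12 in LV, at 6.50, 6.64 and 6.34 in RV and at 8.87, 8.95, 8.51 and 8.63 in SA. It stood at 11.68, 11.43, 9.81 and 12.86 in PV and at 9.89, 10.80, 10.05 and 9.66 in PA. The groups V, LA, SA and PV did not overlap in this order, and the differences were 3.74 between PV and LA (SE 0.40, adjusted p = 4.95e-06), 1.04 between LA and V (SE 0.35, adjusted p = 0.0269), 2.08 between SA and V (SE 0.35, adjusted p = 0.000144) and 1.04 between SA and LA (SE 0.40, adjusted p = 0.0888). The last of these did not pass in the fit of all arrays and did with the SA and LA arrays alone (adjusted p = 0.00261). The call between LA and V was lost without any 1 of LA replicates 1, 2 and 3 or RV replicate 3, and with normexp background correction.

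Sncg, gamma-synuclein of peripheral neurons, which fat cells also make, stood at 7.90, 8.25, 7.51 and 7.34 in LA, at 7.34, 7.43, 7.44 and 8.38 in LV, at 7.72, 8.60 and 8.41 in RV and at 9.60, 9.41, 9.38 and 9.10 in SA. It stood at 11.21, 10.54, 10.18 and 11.35 in PV and at 9.09, 8.59, 8.36 and 7.52 in PA. All SA arrays lay above LA, LV, RV and PA, and all PV arrays above SA. PV was higher than LA by 3.07 (SE 0.33, adjusted p = 5.63e-06) and SA than LA by 1.62 (SE 0.33, adjusted p = 0.0022). Elavl4, an RNA-binding protein of neurons, was well above background on 3 of 4 PV arrays and nowhere else, with a mean of 6.13 in PV (SD 1.66). It was 3.47-fold higher in PV than in LA with LA set at the lowest signal well above background (adjusted p = 0.00455 as measured). PV replicate 3 lay at background, so that this is no strict lower bound. The call between PV and SA was lost in 10 of the alternatives. Among them were dim arrays set at that signal, PV replicate 1, 2 or 4 left out, and only the PV and SA arrays fitted.

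Of the 7 vesicle and granule genes 5 were higher in PV than in LA, where 6.99% of all genes were. No LA array was well above background for 3 of the 7, and with dim arrays raised to the lowest signal well above background the median log2 difference of the 7 was 2.85. Chgb, chromogranin B of dense-core granules, stood at 3.58, 3.67, 2.85 and 2.93 in LA, at 2.68, 3.45, 2.85 and 3.62 in LV and at 3.22, 3.51 and 3.72 in RV. It stood at 4.17, 5.64, 4.06 and 6.35 in SA, at 7.53, 7.55, 6.01 and 8.83 in PV and at 3.04, 5.12, 4.20 and 3.84 in PA. It was well above background on all 4 PV arrays, on 2 SA arrays and on none of the others, so that it was at least 8.85-fold higher in PV than in LA (adjusted p = 4.42e-05). With LA set at the lowest signal well above background, Chgb was 1.65-fold higher in SA than in LA (adjusted p = 0.0322 as measured). SA replicates 1 and 3 lay at background, so that this is no lower bound. The call was lost without SA replicate 2 or 4 or LA replicate 1, 3 or 4, with array row as a block and with a pseudocount of 16. It was also lost with dim arrays set at the lowest signal well above background, and with only the SA and LA arrays in the fit (adjusted p = 0.0697).

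Scg2, secretogranin II, the precursor of secretoneurin, stood at 2.04, 3.34, 3.47 and 2.89 in LA, at 2.38, 3.19, 2.46 and 3.69 in LV and at 2.20, 3.34 and 2.49 in RV. It stood at 4.33, 5.27, 4.69 and 7.74 in SA, at 6.75, 7.59, 6.42 and 7.99 in PV and at 2.38, 3.47, 2.51 and 3.50 in PA. SA replicate 4 lay inside the range of PV and the other SA arrays below it, and 2 of the SA arrays were well above background. Scg2 was at least 7.23-fold higher in PV than in LA (adjusted p = 7.86e-05) and at least 2.26-fold higher in SA than in LA (adjusted p = 0.00547). The bound against LA rests on SA replicate 4 and is at least 1.35-fold without that array (adjusted p = 0.0129), and the call was lost with only the SA and LA arrays in the fit (adjusted p = 0.0629). PV and SA differed by 1.68 (SE 0.59, adjusted p = 0.137).

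Snap25, a SNARE protein of synaptic vesicle fusion, stood at 4.43, 4.60, 4.80 and 5.77 in LA, at 5.57, 5.24, 4.79 and 4.49 in LV, at 5.01, 4.47 and 5.44 in RV and at 4.92, 5.32, 5.11 and 4.75 in SA. It stood at 8.86, 8.61, 6.26 and 9.97 in PV and at 5.87, 6.92, 5.69 and 5.00 in PA. All PV arrays lay above all LA, LV, RV and SA arrays, by 3.53 against LA (SE 0.56, adjusted p = 0.000268). Syt4, a synaptotagmin of neuronal granules, was well above background on 3 of 4 PV arrays and on no other, at least 6.59-fold higher in PV than in LA (adjusted p = 0.000336). Only 1 of its 2 probes was ever above background. Scg3, secretogranin III, had a mean of 5.68 in PV (SD 0.67) and of 2.82 to 4.37 elsewhere, and passed between PV and LA (adjusted p = 0.000315). It was well above background on 2 of 4 PV arrays and 1 of 4 LA arrays, and the log2 difference was 1.37 with dim arrays raised to the lowest signal well above background (adjusted p = 0.0429). Chga, chromogranin A, had means of 6.30 to 6.83 (adjusted p = 0.726), and Syt1, the calcium sensor of vesicle fusion, means of 3.45 to 4.52 with a spread from 2.14 to 7.97 (adjusted p = 0.923).

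The PV arrays had the largest median spread in these genes of the 6 regions, which was not tested. The median SD of the 33 genes was 0.677 in PV and 0.295 (SA) to 0.573 (PA) in the other regions, and over all genes it was 0.231 in PV and 0.207 to 0.237 elsewhere. Of the 19 genes called higher in PV than in LA, PV replicate 4 was the highest PV array for 18 and PV replicate 3 the lowest for 17. Over all 1124 genes called higher in PV than in LA, PV replicate 4 was the highest for 42.9% and PV replicate 3 the lowest for 24.6%. Relative to the LA mean, the median of the 19 genes was 3.48, 3.43, 1.5 and 4.84 on PV replicates 1 to 4, and 2.63, 2.79, 1.17 and 3.66 with dim LA arrays raised to the lowest signal well above background. On PV replicate 3 Mapt, Scg2, Elavl4, Nefl, Tubb3, Chgb, Npy, Nefh and Chrna3 did not exceed the highest array of LA, LV, RV and SA together.

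Markers of Schwann cells, which wrap peripheral axons, were more even within PV. Of 14 measured, 7 were higher in PV than in LA and 1 was lower, and the median of the 7 relative to the LA mean was 1.71, 1.52, 1.91 and 1.89 on PV replicates 1 to 4. The summed signal of the 14 was 24800 to 30500 in PV, 18000 to 20900 in PA, 12500 to 13500 in SA, 9130 to 14800 in LA, 7680 to 9790 in LV and 8830 to 11700 in RV. S100b, a calcium-binding protein of Schwann cells, was higher in PV than in LA by 2.14 (SE 0.29, adjusted p = 6.8e-05). The summed signal of 6 mesothelium markers was 9744, 10389, 3757 and 7629 on PV replicates 1 to 4, and that of 9 adipocyte markers 42985, 40764, 30007 and 39186, with replicate 3 the lowest in both. The part of fat, mesothelium or nerve left on the tissue in the spread of the neuron genes was not tested.

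**Figure D5:**
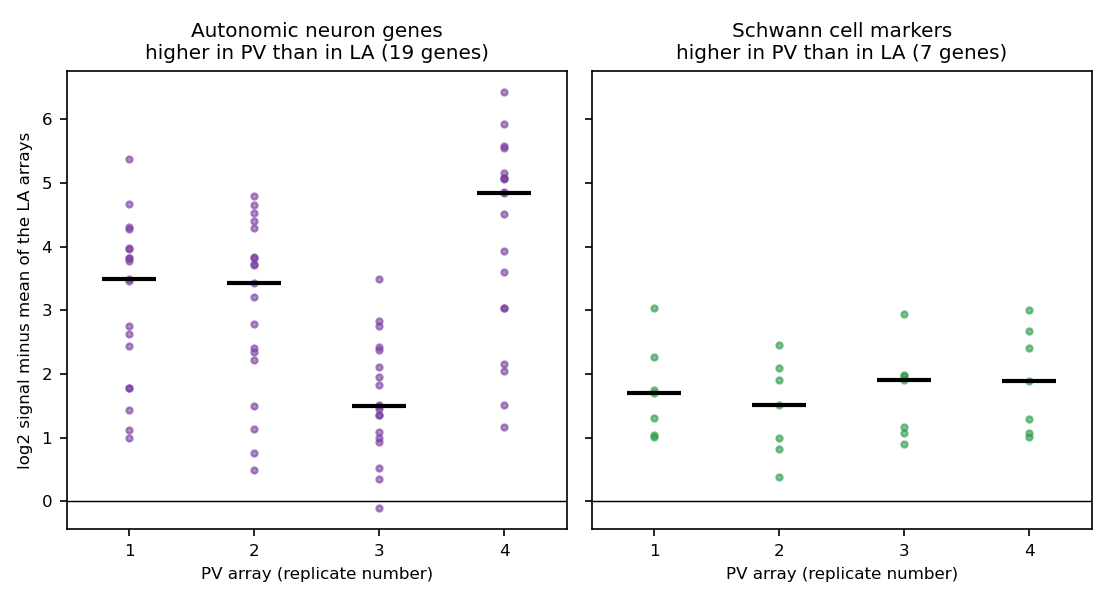
Log2 signal of each gene minus its mean over the LA arrays (points) on the 4 PV arrays, with the median (black bars), for the 19 autonomic neuron genes (left) and the 7 Schwann cell markers (right) called higher in PV than in LA. The neuron genes are lowest on replicate 3 (median 1.5) and highest on replicate 4 (4.84), and the Schwann cell medians lie between 1.52 and 1.91.

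Leaving out single arrays changed the comparison with SA more than that with LA, where 17 to 20 genes differed. Without PV replicate 4, 8 genes differed between PV and SA in place of 16, without SA replicate 3 9 and without PV replicate 1 10, while without PV replicate 3 there were 17. With only the 8 arrays compared in the fit, PV and LA differed for 16 genes, while L1cam was the 1 gene that differed between PV and SA. With PV replicates 3 and 4 both left out, which was tried once the values were known, 18 genes differed for PV against LA and 11 for PV against SA. Within row 1 of the arrays, with 1 PV array, 10 genes were higher in PV than in LA with a median of the 33 of 1.5, and within row 2, with 1 LA array, 1 gene was, with a median of 1.68. A single array has no spread of its own there and was taken to vary like the other regions. With array row as a block 19 were higher, with a median of 1.47.

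Markers of other cells also differed between these regions. Of 8 smooth muscle markers 7 were higher in SA than in LA, 7 in PV than in LA and 7 in PA than in PV, with summed signals of 63500 to 78000 in LA, 107000 to 135000 in SA, 130000 to 166000 in PV and 769000 to 903000 in PA. All 6 mesothelium markers were lower in PV and in SA than in LA. Of 9 adipocyte markers 3 were higher in PV than in LA and 1 in SA than in LA, and their summed signal was 25600 to 39500 in LA, 30700 to 45800 in SA, 30000 to 43000 in PV and 21300 to 31300 in PA. Ucp1, a gene of brown fat named after its values were seen, ran from 11.15 to 13.60 in SA, from 8.16 to 12.42 in PV and from 11.14 to 13.33 in PA, all above its 3.86 to 7.35 in LA, 3.52 to 4.81 in LV and 3.38 to 5.04 in RV. Adipoq, the adipocyte hormone adiponectin, did not follow the sum either, with a mean of 11.29 in PA, 10.05 in PV, 9.68 in SA and 7.90 in LA against 3.87 in LV and 5.85 in RV, and was higher in PV than in LA by 2.15 (SE 0.64, adjusted p = 0.031). None of 7 lung epithelium markers was higher in PV than in LA. Of 5 markers of chromaffin and neuroendocrine cells, 1 was higher in PV than in LA. The part of these tissues was not tested.

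In PA, most neuron genes were lower than in PV. Npy and Stmn2 did not pass between PA and PV, Gal was higher in PA, and Uchl1 was lower in PA by -1.34 (SE 0.40, adjusted p = 0.00743) while higher than in V by 3.44 (SE 0.35, adjusted p = 4.7e-08). Chgb, Scg2, Snap25, Syt4, Chrna3, Elavl4, Nefm, Nefl, Ina, Gap43, Sncg and L1cam were lower in PA than in PV. Dbh, Ddc, Ret, Nefh, Tubb3, Mapt and Scg3 were lower as well. With only the PA and PV arrays in the fit, Uchl1 (adjusted p = 0.0945), Elavl4 (adjusted p = 0.0668) and Nefl (adjusted p = 0.109) lost their calls between PA and PV. The calls of Nefl and Nefh in this comparison were also lost without single PA or PV arrays, PV replicate 4 among them. Against V, Npy, Stmn2, Uchl1 and Gal were higher in PA, and 8 genes were lower: Mapt by -4.20 (SE 0.17, adjusted p = 2.36e-14), Ddc by -4.07 (SE 0.15, adjusted p = 6.87e-15), Dbh by -3.74 (SE 0.49, adjusted p = 1.53e-06), and Ret, L1cam, Tubb3, Scg3 and Nefh by smaller differences. Scg3 lay at background on all PA arrays and on 6 of the 7 ventricular arrays, and with dim arrays raised as above it did not pass between PA and V (-0.08, adjusted p = 0.94) or PA and PV (-0.95, adjusted p = 0.0789).

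For the 3 regions that the study set against each other, LA, V and SA, 11 of 32 genes differed, where 40.5% of all genes did. The specificity measure SPM, the log2 mean of a region over the length of the vector of the 3 means, with the mean of the 7 ventricular arrays taken for V, is 0.577 where the regions are equal. Of the 11, SPM was highest in SA for Scg2 (0.804), Chgb (0.737), Npy (0.688), Uchl1 (0.651), Sncg (0.646), Gap43 (0.638), Ddc (0.603) and L1cam (0.599). It was highest in V for Mapt (0.633), Nefh (0.622) and Dbh (0.594). No gene of the 11 was highest in LA. Scg2 and Chgb lay at background in LA and V, so that their SPM rests on values with little meaning there.

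LV and RV differed only for Ddc, higher in LV by 0.90 (SE 0.18, adjusted p = 0.0256), with no overlap between the 4 LV and the 3 RV arrays. The call was lost without LV replicate 1, 2 or 3 or RV replicate 2, and with only the LV and RV arrays.

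Among 102 other neuronal genes in 6 lists, 30 were higher in PV than in LA and none lower, where 6.99% and 6.51% of all genes were. Between PV and SA 16 were higher and 2 lower in PV (2.71% and 0.783% of all genes). Between SA and LA 12 were higher and 3 lower in SA (7.03% and 8.26% of all genes). The median log2 difference of the 102 genes between PV and LA was 0.35, and that of all genes was -0.03. Among 18 other axon and neuron genes 7 were higher in PV than in LA. Between PA and PV 7 of the 18 were lower in PA and 4 higher, beside 23.7% and 29.7% of all genes. Those with the lowest adjusted p among the regions were among the 4. Map1b, a microtubule-associated protein, was higher in PA than in PV by 2.80 (SE 0.16, adjusted p = 1.59e-11). Ncam1, an adhesion molecule, was so by 3.25 (SE 0.17, adjusted p = 3.66e-12) and Dpysl3 by 2.59 (SE 0.18, adjusted p = 2.47e-10). All were highest in PA. Among 24 other vesicle genes 6 were higher in PV than in LA, of which Rims2, a scaffold of vesicle release sites, was also higher in SA than in LA by 3.33 (SE 0.29, adjusted p = 5.49e-07).

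Of 20 neurotrophin and ganglionic receptor genes 7 were higher in PV than in LA. Ntrk3, the receptor of neurotrophin-3, was higher in PA than in V by 5.92 (SE 0.21, adjusted p = 2.92e-15). Of 15 other noradrenergic and transmitter genes 3 were higher in PV than in LA, among them Gch1, which makes the cofactor of tyrosine hydroxylase, by 0.96 (SE 0.16, adjusted p = 5e-04). Of 13 other peptide and processing genes 3 were higher in PV than in LA; Penk, proenkephalin, was higher in LV than in RV by 4.40 (SE 0.28, adjusted p = 5.94e-08), and Pcsk1, a prohormone convertase, was higher in PA than in PV by 3.79 (SE 0.29, adjusted p = 8.79e-10). Of 12 neuronal channel genes 4 were higher in PV than in LA, among them Kcna1, a potassium channel of axons, by 1.84 (SE 0.36, adjusted p = 0.00164).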

How the data were processed

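The data are 23 single-color Agilent rat arrays (SurePrint G3 8x60K v2), grouped by the tissue in their labels. The authors' deposited normalized intensities are linear signals of Feature Extraction 11.0.1.1 multiplied by 1 factor per array to a common 90th percentile; per the file headers, the scanner files hold the processed, mean and background intensities of each spot. Of 45596 probes, 156 with a missing value were left out and 21047 of the rest were named through RefSeq accessions. Each array's brightest probe stood for a gene, 1 was added, log2 was taken, and genes over 4 on this scale were tested. Members and lists were chosen with earlier results of these data known. Comparisons are contrasts of 1 limma fit (limma 3.58.1, R 4.3.3) of all arrays, checked on simulated data, with Benjamini-Hochberg adjustment over all genes and calls at 0.05. Values on every array are given for genes that passed among the regions and were well above background on all arrays of a region (at most 18, by adjusted p) and for the brightest gene of each role. Of other lists, at most 3 genes by adjusted p are named, apart from Ucp1. The alternatives were other scalings, background corrections, filters, probes, pseudocounts and blocks, single rows, and each array left out. Deviations of same-numbered arrays of different regions had a median correlation of -0.043 over 55 pairs, beside 0.00098 over 165 pairs with different numbers. They also went with array row (median 0.085 within a row, -0.101 across rows), so that shared animals cannot be told from this. No spot was saturated. The number of arrays limits the precision. Some genes of the other lists are not reported here.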

Additional observations from a re-analysis of the deposited data

Results flagged for a closer look

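In 7 of 173 groups of 4 arrays, 1 array stood apart from the other 3 by more than Dixon's criterion allows, which chance does in about 1 of 20 groups. Ddc stood at 13.16 on LV replicate 1 against 12.73 to 12.76 on the other LV arrays. Npy stood at 8.36 on LV replicate 2, and Sncg at 8.38 on LV replicate 4. Slc6a2 was low on LV replicate 4, at 6.49. The other 3 lay at background: Sst at 3.67 on PV replicate 2, and Elavl4 at 2.17 and Syt4 at 3.20 on SA replicate 2.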

How the results depend on the processing

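All 105 calls of a gene in a comparison kept their direction in every setting that gave a value. Within row 1 of the arrays 66 of them still passed, and within row 2 40. Row 1 alone gave 0 genes for SA against LA, 10 for PV against LA, 3 for PV against SA and 0 for LV against RV; row 2 alone gave 11 among the 6 regions, 0 for SA against LA, 2 for SA against V, 1 for PV against LA, 0 for PV against SA, 13 for PA against PV and 0 for LV against RV. Row 1 holds 1 SA and 1 PV array and row 2 holds 1 LA and 1 RV array, so that PV against SA in row 1 is 1 array against 1, and a lone array is assumed to vary like the other regions. With only the arrays compared, 5 genes differed between LA and V, 1 between PV and SA and 0 between LV and RV, and with normexp background correction 5 differed between LA and V. Dbh (SA and LA against V), Tubb3 (LA against V) and Uchl1 (SA against LA) passed with the compared arrays alone and not with all arrays. The cause was not tested.

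Leaving out 1 array at a time gave 23 to 24 genes among the 6 regions, 6 to 9 for SA against LA, 7 to 9 for SA against V, 2 to 4 for LA against V, 17 to 20 for PV against LA, 8 to 17 for PV against SA, 17 to 20 for PV against V, 19 to 23 for PA against PV, 11 to 14 for PA against V, 0 to 1 for LV against RV and 10 to 12 among LA, V and SA. PV against SA fell to 8 without PV replicate 4, 9 without SA replicate 3 and 10 without PV replicate 1. LV against RV fell to 0 without LV replicate 1, 2 or 3 or RV replicate 2.

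With the replicate number as a block, 23 genes differed among the 6 regions, 8 for SA against LA, 8 for SA against V, 3 for LA against V, 19 for PV against LA, 17 for PV against SA, 17 for PV against V, 21 for PA against PV, 12 for PA against V and 1 for LV against RV. Whether the numbers pair the arrays is not known: 12 of 55 same-numbered pairs correlated over 0.1, beside 52 of 165 pairs with different numbers. The second Chat probe fitted alone, chosen after the data were seen, gave -0.37 for PV against LA and 1.03 for PA against PV, opposite in sign to the gene's values of 1.19 and -0.51, which set the first probe on 3 of 4 PV arrays against mostly the second elsewhere and so measure no difference of either probe.

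Counts over all genes moved by more than 1.5 times in these settings. The main counts were 10363 for 6 regions, 5691 for LA against V, 84 for LV against RV, 8591 for PA against PV, 2172 for PV against LA, 562 for PV against SA, 5455 for PV against V, 2460 for SA against LA and 4523 for SA against V. Row 1 alone gave 6626 for 6 regions, 3255 for LA against V, 5 for LV against RV, 4935 for PA against PV, 92 for PV against LA, 29 for PV against SA, 1670 for PV against V, 43 for SA against LA and 765 for SA against V. Row 2 alone gave 1814 for LA against V, 53 for LV against RV, 343 for PV against LA, 37 for PV against SA, 2689 for PV against V, 444 for SA against LA and 2485 for SA against V. The filter on genes well above background gave 137 for LV against RV. A trended, robust prior variance gave 141 for LV against RV. Without LV replicate 2, the fit gave 52 for LV against RV. Without RV replicate 1, the fit gave 46 for LV against RV. Without RV replicate 2, the fit gave 41 for LV against RV. The compared arrays alone gave 13 for LV against RV, 1264 for PV against LA and 67 for PV against SA. Without PV replicates 3 and 4 together, the fit gave 975 for PV against LA and 78 for PV against SA. Normexp correction gave 348 for PV against SA and 4185 for SA against LA. Without PV replicate 4, the fit gave 176 for PV against SA. Without SA replicate 1, the fit gave 245 for PV against SA. Without SA replicate 2, the fit gave 298 for PV against SA. Without SA replicate 3, the fit gave 251 for PV against SA.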
